A study of Homo sapiens with 7 samples.

Results

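A transversion swaps a purine (adenine or guanine) for a pyrimidine (cytosine or thymine) or the reverse. The mutants described here carry a transversion at an adenine or thymine, and they were chosen by the base change in the construct name alone: both alleles are single bases, the reference allele is A or T, and the change crosses between purine and pyrimidine. There were 198 such mutants among the 1025 of the mutant table, or among its 879 single-base substitutions. Of these, 141 gained a guanine or cytosine (80 A-to-C and 61 T-to-G), and 57 stayed adenine or thymine (27 A-to-T and 30 T-to-A). They lay in 134 of the 376 regions with a mutant.

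The mutants were read in a lentiviral massively parallel reporter assay in C4-2B cells, a prostate cancer epithelial line grown in culture. Of the 7 libraries, 1 linked barcodes to sequences, 3 were of genomic DNA (gDNA) and 3 of RNA, both taken 48 hours after transduction with the library. The authors' deposited table gives 1 value per mutant, taken here as the natural log of the odds of RNA over gDNA for mutant against wild-type sequence. A positive estimate means more reporter RNA from the mutant, and the error printed after ± is the standard error that the estimate and its z value imply. Calls of higher or lower were made at an adjusted p, as deposited, under 0.05. The table combines the replicates and gives no reads, so the depth behind each value is unknown. Its p-values cover the error of that model alone, and nothing in the labels says that the replicates were separate cultures.

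An enhancer or promoter works through short motifs that transcription factors read base by base, so a single base can make, weaken or destroy a site. An A-to-C or T-to-G change turns an A:T pair into the more strongly pairing C:G and raises the local GC content. An A-to-T or T-to-A change leaves the composition of the pair as it was and swaps the strands. Bases are those of the genome's plus strand, so A-to-C and T-to-G are 1 change seen from opposite strands. The orientation of the constructs in the reporter is not given in the sources used here.

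Reference sequence was at hand for the 5 members that lie under a promoter window of RefSeq (GRCh38.p14), which runs from 250 bases before to 50 bases after an annotated start of a gene; a gene can have several. They are shown because they are the members whose base change can be seen in its surroundings. Each line gives the plus strand from 5′ to 3′ with the tested base in capitals, first as the reference and then as the mutant that the construct name specifies.
FGF2 reference, chr4:122826779-122826807: gtgggtgtggggggTggagatgtagaaga
FGF2 mutant: gtgggtgtggggggGggagatgtagaaga
TRERF1 reference, chr6:42452138-42452166: ttttttttttttttAaatccaggatgcaa
TRERF1 mutant: ttttttttttttttTaatccaggatgcaa
KRT33B reference, chr17:41369764-41369786: agtggagcTctggaagtcagttt
KRT33B mutant: agtggagcActggaagtcagttt
ADIPINT reference, chr9:98910955-98910983: ggtttattagtggaAcatttccattctac
ADIPINT mutant: ggtttattagtggaCcatttccattctac
SULT1C4 reference, chr2:108377953-108377981: tgccagtggacaaaTtcataaacaagagc
SULT1C4 mutant: tgccagtggacaaaGtcataaacaagagc

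The FGF2 mutant lay inside this fibroblast growth factor gene, 111 bases after its outermost annotated start and 38 bases before the start that its promoter window is built on. It was called higher at 0.73 ± 0.076 per the authors' deposited table, or 2.08-fold higher odds (adjusted p = 3.76e-20). Its T-to-G change joined 6 guanines on the left and 2 on the right into a run of 9, in a stretch where 71.0% of the flanking 100 bases were G or C. The TRERF1 mutant lay inside a gene for a zinc finger transcription regulator, 72 bases after its outermost annotated start and 226 bases before the start that its window is built on. It was called lower at -0.34 ± 0.065 per the authors' deposited table (adjusted p = 1.01e-06). Its A-to-T change lengthened a run of 14 thymines to 15. The same base lay 208 bases before the starts of LOC124900214 and LOC107986596, genes on the opposite strand. The KRT33B mutant, 41 bases after the start of this hair keratin gene, carried a T-to-A change and was called lower at -0.61 ± 0.13 per the authors' deposited table (adjusted p = 2.09e-05).

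The members at ADIPINT and SULT1C4 were not called. At ADIPINT, a non-coding RNA gene, the A-to-C change lay 235 bases before the start and stood at -0.80 ± 0.40 per the authors' deposited table (adjusted p = 0.0708). At SULT1C4, a sulfotransferase gene, the T-to-G change lay 13 bases after the start and stood at -0.090 ± 0.048 per the authors' deposited table (adjusted p = 0.0943). The windows were searched on both strands for 10 motifs: GGAA for ETS factors, TGTTTAC for forkhead factors, TGTTCT for the androgen receptor, TGANTCA for AP-1, AGATAA for the GATA family, CCAAT for NF-Y, TAATTA for homeobox factors, CACGTG for E-box factors, GGGCGG for SP/KLF factors and TATAAA for the core promoter box. The ADIPINT change removed 1 of 2 GGAA matches, and 0 matches were made or lost in the other windows. GGAA is common: it occurred in 26.9% of stretches of 29 bases taken from the start of all 35116 promoter windows, against 0.308% to 4.78% for the other motifs. None of the 5 changes made a CpG within its window.

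Members were called about as often as other mutants, and the classes differed in direction more than in number. Of the 198 members, 109 (55.1%) were called per the authors' deposited table, 60 higher and 49 lower, where 56.6% of all mutants were called, 29.5% higher and 27.1% lower. Of the 141 that gained a G or C, 78 were called (55.3%), 47 higher (33.3%) and 31 lower (22.0%), per the authors' deposited table. Of the 57 that stayed A or T, 31 were called (54.4%), 13 higher (22.8%) and 18 lower (31.6%), per the authors' deposited table. Gaining mutants thus had more higher calls than lower ones, and staying mutants more lower calls than higher ones. With 1 mutant per region and class, the one with the smallest error, the shares were 33.0% higher and 20.6% lower among 97 gaining mutants, and 22.4% and 32.7% among 49 staying mutants. With Bonferroni adjustment 58 of the 109 calls were left, and the 51 lost include all member calls at SF3A1, SKAP1, NUP85, EPB41 and KLF3. After division of every z by 3.92, the robust SD of z over the mutant table, 1 member was still called, the A-to-C mutant near IL3RA. The difference in direction between the classes was not tested, since members share regions and wild-type sequence and are not replicates.

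Split by strand, A-to-C mutants had more higher than lower calls, and T-to-G mutants had nearly equal counts. These had 29 higher and 14 lower calls among 80 per the authors' deposited table, and T-to-G mutants had 18 and 17 among 61. Staying mutants leaned the other way in both forms, with 7 higher and 10 lower calls for A-to-T and 6 and 8 for T-to-A per the authors' deposited table. Among the nearest kinds of substitution, transitions at A or T, which also gain a G or C, had 99 higher and 86 lower calls among 322. Transversions at C or G that lose it, the reverse of the gaining change, had 17 higher and 24 lower among 74, or 23.0% and 32.4%. Transitions at C or G, which lose it too, went the other way. They had 64 higher and 51 lower among 208, or 30.8% and 24.5%, so direction did not follow gain or loss across kinds.

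The estimates of both classes centred near 0 and overlapped broadly. The median was 0.045 in gaining mutants (quartiles -0.14 and 0.30) and -0.0095 in staying mutants (quartiles -0.40 and 0.24), against 0.022 over all mutants of the authors' deposited table. The gap between the classes is small beside either spread. Weighted by the inverse squared error, the medians were 0.014 in gaining and 0.083 in staying mutants, the reverse order. This weighting leans on the few members with the smallest errors. Only 7 staying mutants had an error up to 0.05. The median size, sign ignored, was 0.24 in gaining mutants and 0.33 in staying mutants, or 1.27- and 1.39-fold, against 0.31 over all mutants. Called changes beyond 2-fold numbered 20 of 141 (14.2%) in gaining mutants, 10 in each direction, and 11 of 57 (19.3%) in staying mutants, 4 higher and 7 lower, against 20.9% of all mutants per the authors' deposited table.

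The error moved with these sizes, and its part in them was not tested. The median standard error was 0.089 in gaining mutants (0.077 for A-to-C), 0.12 in staying mutants and 0.12 over all mutants. Among gaining mutants with an error up to 0.05, 24 of 35 were called per the authors' deposited table, with a median called size of 0.16. Among those with an error over 0.2, 13 of 28 were called, with a median called size of 1.59. Staying mutants had 4 of 7 called with an error up to 0.05 and 7 of 16 with one over 0.2 per the authors' deposited table. The most precise members thus gave many calls of small size. Estimates beyond 10 in size, with errors far above themselves, belonged to 4 members, near PRSS58 and MKLN1 among gaining mutants and inside WASF2 and PEX5L among staying ones. None of these was called.

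Regions are named by the protein-coding gene that they overlap, or else by the nearest one, which does not state that the region controls it. Among gaining mutants, 74 lay in regions inside a gene, with 31 higher and 12 lower calls per the authors' deposited table. The 65 in intergenic regions had 16 higher and 18 lower. With A-to-C and T-to-G pooled, the excess of higher calls thus lay within genes. The intergenic balance pooled opposite patterns, however. Intergenic A-to-C mutants had more higher than lower calls, and intergenic T-to-G mutants had fewer. Staying mutants inside genes had 10 higher and 8 lower calls among 27, and those in intergenic regions 3 and 8 among 27. Over all mutants the counts were 170 higher and 147 lower of 523 inside genes, and 120 and 117 of 450 in intergenic regions. The regions of members had a median length of 754 bp for gaining and 951 bp for staying mutants, against 996 bp over all mutants.

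The highest called gaining mutant lay inside IL36RN, which encodes an interleukin-36 receptor antagonist, at 2.53 ± 0.48 per the authors' deposited table, or 12.6-fold higher odds (T-to-G, chr2:113058663-113058740, adjusted p = 6.92e-07). One in a region 197579 bp from PRSS58, a serine protease gene, stood at 1.71 ± 0.18 per the authors' deposited table, or 5.52-fold (A-to-C, chr7:142455637-142457635, adjusted p = 1.14e-20). A mutant inside MTA3, the gene of a subunit of the NuRD chromatin remodelling complex, stood at 1.64 ± 0.22, or 5.16-fold, per the authors' deposited table (A-to-C, chr2:42563518-42563674). These 3 are the highest called gaining values, and the last 2 have errors that are small beside their size. The T-to-G mutant inside ATXN2, an RNA-binding protein gene, and the A-to-C mutant inside CGN, which encodes cingulin of tight junctions, both stood at 1.59 per the authors' deposited table, with errors of 0.39 and 0.36. The sixth, 16 bp from SMIM17, stood at 0.95 ± 0.095, or 2.59-fold, per the authors' deposited table (adjusted p = 4.58e-22).

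Gaining mutants also gave the lowest bounded estimates of all members. A T-to-G mutant 8694 bp from TNFSF10, which encodes the apoptosis-inducing cytokine TRAIL, stood at -2.69 ± 0.86 per the authors' deposited table, 14.8-fold lower in odds (chr3:172532124-172533333, adjusted p = 0.00415). One 529 bp from CNPY2 stood at -2.53 ± 0.69, or 12.6-fold lower, per the authors' deposited table (T-to-G, chr12:56309171-56309315). One 934 bp from RAB6A, a GTPase of Golgi transport, stood at -2.27 ± 0.48 per the authors' deposited table, or 9.69-fold lower (A-to-C, adjusted p = 9.69e-06). These large falls carry the largest errors among the called gaining mutants. The T-to-G mutant inside KIAA0825 stood at -1.35 ± 0.26 per the authors' deposited table, or 3.87-fold lower. The calls at TNFSF10 and CNPY2 were lost with Bonferroni adjustment.

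Among staying mutants, the highest called lay 525 bp from NECAB1, a neuronal calcium-binding protein gene, at 2.17 ± 0.41 per the authors' deposited table, or 8.75-fold higher odds (T-to-A, chr8:90786551-90791250, adjusted p = 5.89e-07). One 4209 bp from RHOB, a small GTPase gene, stood at 1.68 ± 0.37, or 5.37-fold, per the authors' deposited table (T-to-A, chr2:20442571-20442865). The A-to-T mutants inside ZNF544, a zinc finger gene, and PTPRM, a receptor phosphatase gene, stood at 1.01 ± 0.30 and 0.97 ± 0.31 per the authors' deposited table. Those inside C19orf38 and PCNX4 followed at 0.66 ± 0.18 and 0.64 ± 0.16 per the authors' deposited table, or 1.93- and 1.90-fold. Bonferroni adjustment left the calls at NECAB1 and RHOB and ended those at ZNF544, PTPRM, C19orf38 and PCNX4.

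The lowest called staying mutant lay 9275 bp from DIO3, the deiodinase that inactivates thyroid hormone, at -1.21 ± 0.25 per the authors' deposited table, 3.35-fold lower in odds (A-to-T, chr14:101550224-101552220). A T-to-A mutant inside IGSF11, an adhesion molecule gene, stood at -1.09 ± 0.39 per the authors' deposited table, and one inside SOD1, the superoxide dismutase gene, at -0.96 ± 0.42. An A-to-T mutant over an end of MEFV, the pyrin gene, stood at -1.03 ± 0.13 per the authors' deposited table, or 2.80-fold lower (chr16:3242023-3242489, adjusted p = 4.30e-15). A T-to-A mutant 299 bp from MCPH1, a DNA damage response gene, stood at -0.95 ± 0.17 per the authors' deposited table, or 2.58-fold lower (adjusted p = 9.49e-08). The values at MEFV and MCPH1 are the more precise of these, and those at IGSF11 and SOD1 were not called with Bonferroni adjustment. Below the lowest called staying value lay 6 called gaining mutants, 2 of them near IL3RA. That limit was set by the staying mutants themselves, and the classes hold 57 and 141 mutants, so this count does not compare them.

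An A-to-C mutant 386 bp from IL3RA, which encodes the alpha chain of the interleukin-3 receptor, had the smallest p-value of all members, at -1.32 ± 0.082 per the authors' deposited table, or 3.76-fold lower (chrX:1334602-1336399, adjusted p = 1.89e-56). An A-to-C mutant 556 bp from the homeobox gene MEIS3 stood at -0.36 ± 0.027 per the authors' deposited table, or 1.44-fold lower (adjusted p = 2.33e-38). One inside HPCAL1, a neuronal calcium sensor gene, stood at 0.31 ± 0.027, or 1.36-fold higher, per the authors' deposited table (adjusted p = 6.82e-28). Of staying mutants, the smallest p-values belonged to A-to-T mutants near SLC6A19 and inside CTIF, at 0.24 ± 0.025 and 0.46 ± 0.048 per the authors' deposited table, with an adjusted p of 4.26e-20 for each. A T-to-A mutant inside RNF41, a ubiquitin ligase gene, came next at -0.67 ± 0.077 per the authors' deposited table (adjusted p = 1.18e-16).

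At 1 site both classes were tested on the same reference base. In a region 5234 bp from LRCOL1 (chr12:132597401-132597917), the A-to-C mutant stood at -0.20 ± 0.036 and was called lower per the authors' deposited table (adjusted p = 7.64e-08). The A-to-T mutant of that base stood at -0.0025 ± 0.022 and was not called per the authors' deposited table (adjusted p = 0.944). The gaining change was lower than the staying one by a difference of -0.20 ± 0.042 (95% interval -0.28 to -0.12). A Wald test on the authors' deposited estimates, adjusted over the 20 pairs compared in all, gave p = 5.36e-06. Its z was -4.80, where the robust SD of z over the mutant table was 3.92. The test was not repeated with scaled z, and the A-to-C call itself was lost on scaling. Elsewhere in the LRCOL1 region the order did not repeat: another A-to-C mutant stood at 0.0033 ± 0.018 and another A-to-T mutant at -0.13 ± 0.025 per the authors' deposited table, the latter called lower.

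A second site set a member against a transition of the same base. At the IL3RA site above, the A-to-C mutant stood at -1.32 ± 0.082 and an A-to-G mutant at 0.14 ± 0.12 per the authors' deposited table, a difference of -1.46 ± 0.14 (95% interval -1.74 to -1.18). The wild-type constructs listed under these 2 names also differed. Against scrambled sequence they stood at 1.14 ± 0.075 and 0.52 ± 0.11 per the authors' deposited table, a difference of 0.62 ± 0.13 (95% interval 0.36 to 0.88, p = 3.60e-06 by a Wald test). The sources used here do not say whether these wild-type constructs share 1 sequence, and their part in the mutants' difference was not tested. At SMIM17, an A-to-C mutant at 0.95 ± 0.095 shares its named position with a deletion at -0.67 ± 0.17 per the authors' deposited table, a difference of 1.62 ± 0.19.

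Members close to each other differed in some regions and not in others. There were 17 pairs of members at different sites within 10 bp, in 15 regions, and 8 of them differed by a Wald test adjusted over the 20 pairs. These tests took the implied errors as they stand and were not repeated with z divided by its robust SD, which left few calls. Among the 8 that differed, z was 2.36 at CDH22, the smallest in size, and -11.2 at HPCAL1, the largest. The robust SD of z over the mutant table was 3.92. The T-to-G mutants inside PTPRU, a receptor phosphatase gene, lay 7 bp apart and were called in opposite directions, at 0.25 ± 0.088 and -0.72 ± 0.079 per the authors' deposited table. Inside HPCAL1, A-to-C mutants 8 bp apart stood at -0.086 ± 0.022 and 0.31 ± 0.027 per the authors' deposited table, also called in opposite directions. Bonferroni adjustment ended the calls at 0.25 inside PTPRU and at -0.086 inside HPCAL1. An A-to-T mutant of the HPCAL1 region was called higher at 0.12 ± 0.024 per the authors' deposited table. By contrast, A-to-C mutants 6 bp apart in the region inside PDE4C and CIST1 were both called higher, at 0.59 ± 0.099 and 0.82 ± 0.076 per the authors' deposited table, a difference of -0.24 ± 0.12 (95% interval -0.48 to 0.0086).

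Inside KLF3, a Krüppel-like transcription factor gene, 3 neighbouring thymines were tested. The T-to-A mutant was called higher at 0.22 ± 0.091, and the T-to-G mutants stood at -0.22 ± 0.11 and -0.011 ± 0.19, not called, per the authors' deposited table. Only the first of these T-to-G mutants, 1 bp away, differed from the T-to-A mutant (difference -0.44 ± 0.14, adjusted p = 0.00613 from the authors' estimates), and the other's difference had a 95% interval from -0.64 to 0.18. Near AGRP, which encodes an appetite-stimulating neuropeptide, adjacent A-to-C and A-to-T mutants stood at -0.71 ± 0.46 and -0.050 ± 0.23 per the authors' deposited table. Their difference of -0.66 had a 95% interval from -1.66 to 0.35, which leaves its direction unresolved.

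In all, 12 regions held members of both classes, 23 gaining and 14 staying. In the region inside the complement gene C2 (chr6:31922725-31925687), both classes were lower: the T-to-G mutants stood at -0.97 ± 0.11 and -0.61 ± 0.16 and the T-to-A mutant at -0.88 ± 0.18 per the authors' deposited table, all called. The same held 177276 bp from HDAC4, a histone deacetylase gene, at -0.71 ± 0.073 for A-to-C and -0.46 ± 0.12 for A-to-T per the authors' deposited table. In the region near PRSS58 the classes parted. There the A-to-C mutants stood at 1.71 ± 0.18 and 0.60 ± 0.23 and the A-to-T mutant at -0.91 ± 0.12 per the authors' deposited table, all called. Inside GCH1, the rate-limiting enzyme gene of tetrahydrobiopterin synthesis, the A-to-T mutant was called lower at -0.42 ± 0.092 per the authors' deposited table. The T-to-A and A-to-C mutants of GCH1 stood at -0.26 ± 0.27 and 0.30 ± 0.16, not called. Near SYNGR2 and CHMP4B the T-to-G mutant was called lower, at -0.32 ± 0.093 and -0.18 ± 0.081, and the T-to-A mutant was not called, at 0.15 ± 0.085 and 0.10 ± 0.050, per the authors' deposited table. Near SCAMP4 the T-to-A mutant was called lower at -0.37 ± 0.080 and the A-to-C mutant was not called at -0.33 ± 0.29 per the authors' deposited table.

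In the regions with the most members, nearly all members were at adenines. Regions with 4 or more members numbered 6 and held 28 members, of which 27 had A as the reference base. The median error was 0.027 in these 28 and 0.11 in the other 170. In the region 2344 bp from SLC6A19, a neutral amino acid transporter gene (chr5:1196596-1199251), 7 members were tested. Its A-to-C mutants stood at -0.24, -0.11, -0.096, 0.032, 0.077 and 0.23 per the authors' deposited table, with errors from 0.021 to 0.031, and all but the one at 0.032 were called. Within that region A-to-C changes therefore went both ways, and the A-to-T mutant at 0.24 ± 0.025 was as high as the highest of them.

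Inside SLC8A2, a sodium-calcium exchanger gene (chr19:47457914-47459210), all 5 A-to-C mutants were called, 3 higher and 2 lower, from -0.28 ± 0.030 to 0.25 ± 0.039 per the authors' deposited table. Near MEIS3, 3 of 4 A-to-C mutants stood between -0.036 and 0.038 and were not called, beside the one called lower. Near MGAT5B, a glycosyltransferase gene, the 4 A-to-C mutants ran from 0.0043 to 0.11 per the authors' deposited table, with 2 called higher. The 3 A-to-C mutants near CDH22, a cadherin gene, stood at -0.0021, 0.24 and 0.40 per the authors' deposited table, with 2 called higher.

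Of the 39 regions with several members, 12 held higher calls only, 13 lower calls only, 7 both and 7 none. Inside HNRNPF, which encodes an RNA-binding protein of splicing, T-to-G mutants were called at -0.20 ± 0.061 and 0.50 ± 0.062 per the authors' deposited table, and the third stood at -0.024 ± 0.067. The HNRNPF call at -0.20 was lost with Bonferroni adjustment. Inside RNF41 the T-to-A mutants were called in opposite directions, at -0.67 ± 0.077 and 0.41 ± 0.081 per the authors' deposited table. Inside EPB41, the gene of a membrane skeleton protein, both T-to-A mutants were called higher, at 0.24 ± 0.096 and 0.25 ± 0.081 per the authors' deposited table. Inside TCP11L2 and RFPL4AL1 both gaining mutants were called higher, at 0.24 and 0.37 and at 0.53 and 0.83 per the authors' deposited table. Near IL3RA a T-to-G mutant was called lower at -1.34 ± 0.19, and another A-to-C mutant stood at 0.092 ± 0.14, not called, per the authors' deposited table.

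Several members lay at loci that the study tested at other bases too. The SF3A1 member, in a U2 spliceosome subunit gene, was T-to-G and called higher at 0.39 ± 0.11 per the authors' deposited table. Inside SKAP1, a T-cell adaptor gene, both gaining mutants were called higher, at 0.16 ± 0.046 and 0.28 ± 0.083 per the authors' deposited table. Near the nuclear pore gene NUP85, a T-to-G mutant was called lower at -0.48 ± 0.16 per the authors' deposited table, and the other gaining mutants at 0.035 ± 0.064 and 0.076 ± 0.090 were not called. The UBASH3A member was not called, at 0.021 ± 0.17 per the authors' deposited table.

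A wild-type construct under the same name was compared with scrambled sequence for 52 members. Of these wild-type constructs, 20 were called higher and 18 lower per the authors' deposited table, where 62.3% of all 358 were called, 34.1% higher and 28.2% lower. For gaining members the counts were 16 higher, 13 lower and 8 neither of 37, and for staying members 4, 5 and 6 of 15. Both comparisons use wild-type reads, so values are given side by side only. At CGN the wild-type construct stood at -1.64 ± 0.34 and the mutant at 1.59 ± 0.36 per the authors' deposited tables. At ATXN2 the values per the authors' deposited table were -0.90 ± 0.38 for wild-type and 1.59 ± 0.39 for the mutant. For the lowest C2 member they were 0.86 ± 0.073 and -0.97 ± 0.11, again per the authors' deposited table. At SF3A1 both were positive per the authors' deposited table, 1.20 ± 0.42 and 0.39 ± 0.11. At NECAB1 the wild-type construct was not called at 0.074 ± 0.65 per the authors' deposited table, and at DIO3 at -0.034 ± 0.12, not called either.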

How the data were processed

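The analysis started from the authors' deposited tables of comparisons, 1 for mutant against wild-type and 1 for wild-type against scrambled sequence. The authors deposited each estimate as a log odds ratio, taken here as a natural log because the file headers name a logit model. The authors also deposited the model's z, a score. Each construct has a p-value and a q-value deposited by the authors. Recomputation showed p to be the normal two-sided p of z, and q to be p after Benjamini-Hochberg adjustment over the table. Direction was read from how the tables are named. The submitters' processing notes name Bowtie2 and hg38. Barcode filters and construct length: not given in the sources used here.

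The members and lists were chosen with earlier results of these data known. Members were found by base change in Python 3.11.15 with pandas 2.3.3, and folds are exponentials of the estimate's size. The adjustment and the calls were tested on simulated estimates whose noise followed the implied errors, and the weighted median on a small example. The wider spread of z in the mutant table was not simulated. The pair tests, motif search and assignment to genes were not tested in this way. Region starts were raised by 1 base to count from 1, and the reference base then matched at 12 of 12 substitution sites under RefSeq promoter windows. Regions were assigned to 20056 protein-coding genes of GRCh38.p14. The rule named, per class, the 6 highest and 6 lowest called mutants (1 per region) and the 3 with the smallest p. It also named members of regions with several members and of a set of loci, of which those in the text are examples. The members under promoter windows, the pairs within 10 bp and the error bands were chosen after values were seen. The Wald tests treat the errors of a pair as independent and take them as they stand, without division of z by its robust SD. No sequence is shown for members elsewhere. Alternatives were other adjustments, thresholds, error limits and 1 mutant per region.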

Additional observations from a re-analysis of the deposited data

How the results depend on the processing

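Of 40 alternative values, 25 stayed close to the reported ones (counts within 1.5 times, medians within the class's median error). Bonferroni adjustment left 24 higher calls in gaining mutants (of 47), 16 lower calls in gaining mutants (of 31), 6 higher calls in staying mutants (of 13), and 11 higher and 8 lower calls of wild-type counterparts (of 20 and 18). With z divided by its robust SD over the table (3.92 for mutants, 4.12 for wild-type) and Benjamini-Hochberg adjustment, gaining mutants had 0 higher and 1 lower call, staying mutants 0 and 0, and wild-type counterparts 1 and 0. At an unadjusted p under 0.05 of the scaled z, these were 8 and 7, 2 and 2, and 5 and 0. With 1 mutant per region, lower calls in gaining mutants numbered 20, since fewer mutants entered. Weighted by the inverse squared error, the median estimate of staying mutants turned to 0.083 from -0.0095. That of gaining mutants became 0.014 from 0.045, so the order of the classes reversed. Only 7 staying mutants had an error up to 0.05, so few mutants carried much of the weight. The median sizes fell to 0.088 in gaining and 0.13 in staying mutants. The cause was not tested. No replicate could be left out, and no paired analysis was possible because the tables hold no values per replicate. Depth is unknown, so the implied error is the only guide to precision.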
